A study of Mus musculus with 23 samples.

Results

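The genes described here encode 8 proteins that carry a messenger RNA from the loss of its poly(A) tail to its destruction. They are the terminal uridylyl transferases Zcchc6 (also called Tut7) and Zcchc11 (Tut4), the exonucleases Dis3l2 and Xrn1, the decapping enzyme Dcp2, and its partners Dcp1a, Edc3 and Edc4. They were taken by symbol from a table of 24506 genes, each symbol matched 1 entry, and all 8 were among the 13776 genes tested, which reached 1 FPKM (fragments per kilobase of transcript and per unit of mapped fragments) in at least 2 of the 23 libraries. Of these, 6 reached that level in every library, whereas Zcchc11 reached it in 5 libraries and Edc3 in 3.

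RNA was sequenced from mouse germinal vesicle (GV) oocytes, which rest in the first meiotic prophase, from zygotes and from 2-cell embryos. GV oocytes came from wild-type females aged 3 weeks, wild-type females aged 3 months, Cxxc1fl/fl;Zp3-Cre females aged 3 weeks and Cxxc1fl/fl;Gdf9-Cre females aged 3 months. Zygotes and 2-cell embryos had a wild-type father and a mother that was either wild type or Cxxc1fl/fl;Zp3-Cre, and the age of these mothers is not given in the labels. There were 3 libraries in each group, but 2 of wild-type 2-cell embryos. Cxxc1 encodes CFP1, which binds CpG and belongs to the SETD1 complexes, writers of methylation on lysine 4 of histone H3. Zp3-Cre and Gdf9-Cre act in oocytes, Gdf9-Cre from an earlier follicle stage, so an embryo of a deletion mother lacks the maternal supply and still inherits the father's intact copy of the gene. Separate animals are not stated for the libraries of a group, so the spread behind each p-value may be technical.

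As background, decay of most cytoplasmic mRNAs begins with shortening of the poly(A) tail. ZCCHC6 and ZCCHC11 add uridines to short tails, and DIS3L2 degrades uridylated RNA from its 3′ end. From the other end, DCP2 removes the 5′ cap, helped by DCP1A, EDC3 and EDC4, and XRN1 then degrades the uncapped body in the 5′ to 3′ direction. Mouse oocytes store mRNA for use after transcription stops. Much of that store is destroyed during meiotic maturation and again around the time when the embryo switches on its own genome, mainly at the 2-cell stage. Translation of stored Dcp1a and Dcp2 mRNA during maturation is a known step in this clearance.

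Each library was summarised by FPKM, whose column totals ran from 295901 to 420415, and the relative depth read from the steps between low values ran from 0.509 to 1.49 of the first wild-type 3-week library. Cxxc1 was at 24.0 to 41.5 FPKM in wild-type GV oocytes and zygotes, 9.94 and 11.0 in 2-cell embryos of the wild type, and 0.626 to 1.61 wherever Cxxc1 was deleted, apart from a value of 4.16 in the third 2-cell library of Zp3-Cre mothers. That library stood apart: across genes it correlated with the other libraries of its group at r = 0.936 and 0.942, against 0.983 between those. Its summed stroma, theca and endothelium markers were 147 FPKM, against 14.0 and 14.1, and its summed blood markers were 35.4 FPKM, against 3.64 and 0.422. All 10 oocyte markers were above 1 FPKM in at least 1 library of every GV and zygote group. FPKM is relative to the library total, so a lower share of a transcript and more RNA of other kinds cannot be told apart, nor in these pools can fewer cells of a type and less RNA per cell.

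The 8 transcripts ranged from nearly undetected to among the most abundant mRNAs. Dcp1a was the most abundant, with group means from 37.4 FPKM in wild-type 2-cell embryos to 610.0 in wild-type zygotes, where it stood above 99.6% of tested genes in each library. Edc4 followed at 17.2 to 135 FPKM and Dcp2 at 8.81 to 22.5. The catalytic enzymes of the other steps were scarce by comparison. Dis3l2 had group means of 1.79 to 9.72 FPKM, Xrn1 of 1.96 to 6.44 and Zcchc6 of 2.04 to 6.82. Zcchc11 and Edc3 were near the limit of detection in most groups, with group means of 0.0510 to 2.53 and of 0.0729 to 0.826 FPKM. In wild-type 2-cell embryos, however, Zcchc11 at 2.53 FPKM stood above Xrn1 at 1.96 and Dis3l2 at 1.79. FPKM is per length of transcript, so these levels can be compared between genes within a library. Between groups they are relative to library totals, and the comparison depends on scaling. In the plot of FPKM by library, Dcp1a, Dis3l2 and Xrn1 peaked in zygotes, whereas Zcchc6 and Zcchc11 peaked in wild-type 2-cell embryos.

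**Figure D1:**
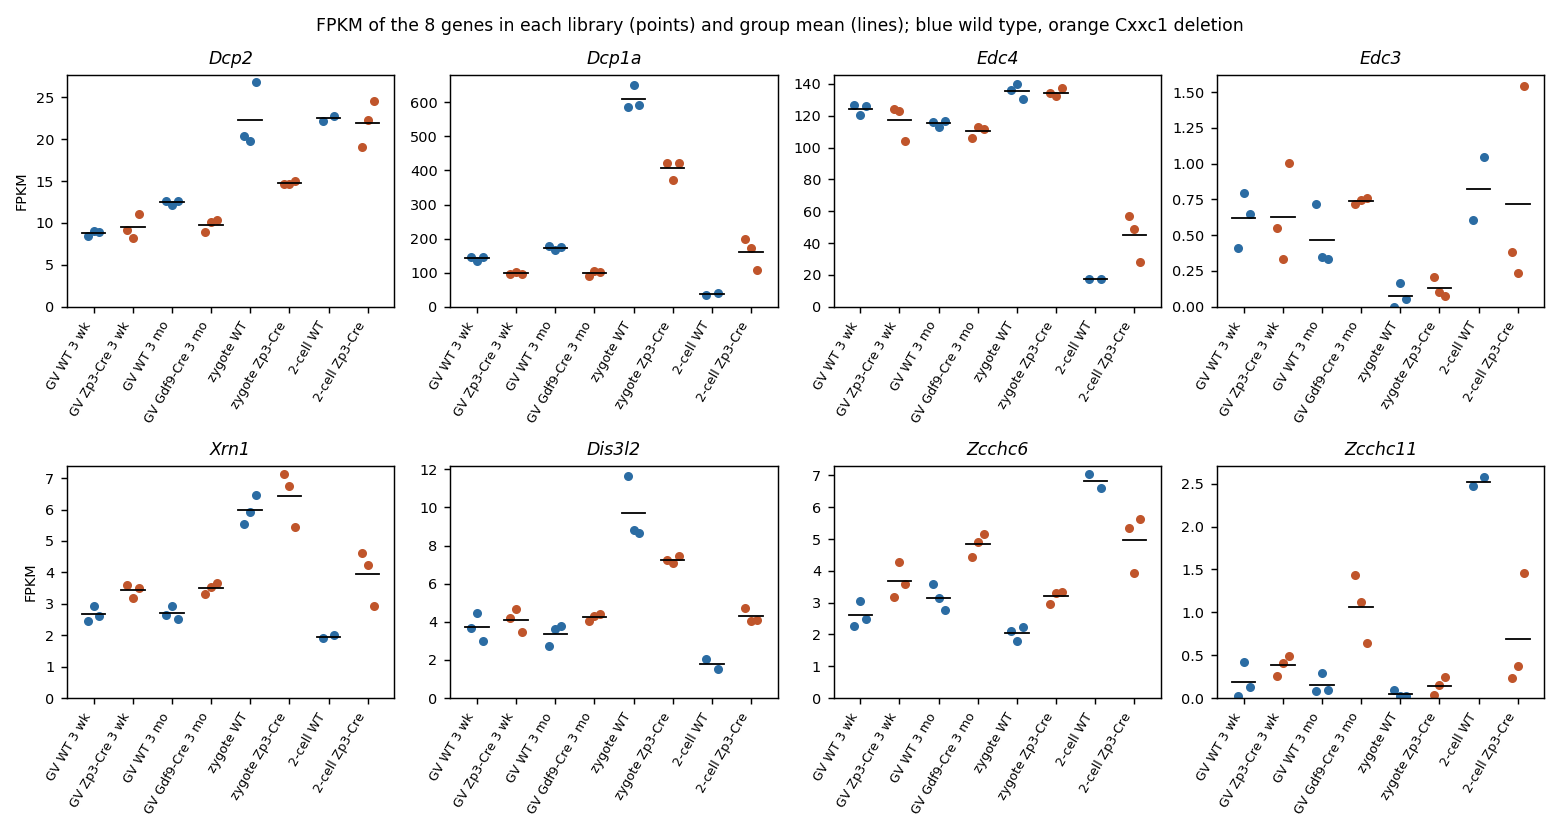
FPKM (vertical axis, linear from 0) of the 8 genes in each of 23 libraries (points), with group means as horizontal lines, for wild-type (blue) and Cxxc1 deletion (orange) groups. Dcp1a reached 588 to 651 FPKM in wild-type zygotes and 35.8 and 38.9 in wild-type 2-cell embryos, while Zcchc11 was at 2.47 and 2.58 in the latter and at 0.0286 to 0.0948 in the former.

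Because CFP1 binds unmethylated CG dinucleotides, the sequence upstream of 3 of the genes is shown: Dcp1a and Edc4, the decapping genes with the largest differences in 2-cell embryos, and Zcchc6, which differed in the opposite direction there. Zcchc11 differed further in that direction, at -1.13 beside -0.40 for Zcchc6, and its sequence is not printed. RefSeq promoter windows (GRCm38.p6) were used for 7 of the 8 genes, and none was used for Dcp2. Of these, the 250 bases before an annotated start held 36 CG in Zcchc6, 24 in Dis3l2, 23 in Dcp1a, 12 in Xrn1, 8 in Edc3 and 5 in Edc4. Zcchc11 had starts with 17 and 11. The window of Dis3l2 and that with 11 CG in Zcchc11 lay wholly inside the gene, after its outermost annotated start. The median over 32851 windows of that length was 6. At least as many CG as in Zcchc6 were found in 2.58% of the windows, as many as in Dcp1a in 13.3% and as many as in Edc4 in 55.6%. Only bases before the outermost annotated start of the gene are printed, 5′ to 3′ on the gene's strand, with every CG in capitals. They lie at chr14:30479315-30479485 on the plus strand for Dcp1a (16 CG in 171 bases), chr8:105880631-105880872 on the plus strand for Edc4 (4 CG in 242 bases) and chr13:59823170-59823397 on the minus strand for Zcchc6 (32 CG in 228 bases).
Dcp1a: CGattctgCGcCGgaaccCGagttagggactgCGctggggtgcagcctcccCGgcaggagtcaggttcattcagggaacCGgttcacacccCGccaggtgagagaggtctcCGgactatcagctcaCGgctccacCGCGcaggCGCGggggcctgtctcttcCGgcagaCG
Edc4: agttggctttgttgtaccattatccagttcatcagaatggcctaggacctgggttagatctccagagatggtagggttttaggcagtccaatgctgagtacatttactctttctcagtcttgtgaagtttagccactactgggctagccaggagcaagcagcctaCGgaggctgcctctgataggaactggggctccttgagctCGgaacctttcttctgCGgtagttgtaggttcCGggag
Zcchc6: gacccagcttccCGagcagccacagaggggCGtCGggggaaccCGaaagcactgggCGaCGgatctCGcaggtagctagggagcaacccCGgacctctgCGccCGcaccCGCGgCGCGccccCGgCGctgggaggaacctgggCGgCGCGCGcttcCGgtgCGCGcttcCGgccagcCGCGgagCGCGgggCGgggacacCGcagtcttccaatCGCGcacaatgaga
Zcchc6 was chosen for its opposite direction in 2-cell embryos, so that contrast follows from the choice of genes. Dcp1a and Zcchc6 also differed in opposite directions in oocytes and zygotes in the main fit. After median-of-ratios scaling Zcchc6 was at 0.28 and 0.28 in oocytes and 0.033 in zygotes. After quantile normalization it was at 0.24, 0.20 and -0.039, and none of these values was called. Any link of CG content to the deletion differences was not tested. These are counts of letters in a reference window, and no binding or methylation was measured there in the data used.

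Each group lacking Cxxc1 was compared with its wild-type counterpart by limma on log2(FPKM + 1) over all 23 libraries, and called differences had a Benjamini-Hochberg adjusted p under 0.05. In 3-week GV oocytes 2 of the 8 genes were called, Zcchc6 higher and Dcp1a lower, against 29.6% of all genes tested (18.3% higher and 11.3% lower). In 3-month GV oocytes 4 were called, Zcchc6 and Zcchc11 higher and Dcp1a and Dcp2 lower, against 49.5% of all genes (34.2% higher and 15.2% lower). In zygotes 4 were called, Zcchc6 higher and Dcp1a, Dcp2 and Dis3l2 lower, against 46.7% (35.3% higher and 11.4% lower). In 2-cell embryos 6 were called, Dcp1a, Edc4, Dis3l2 and Xrn1 higher and Zcchc6 and Zcchc11 lower, against 66.5% (37.1% higher and 29.4% lower). The shares of the 8 called in either direction are near those of all genes, so these totals set the group apart in none of the 4 comparisons. By direction the shares lay further apart in zygotes, where 3 of the 8 were lower against 11.4% and 1 was higher against 35.3%. That split was not tested. The median log2 difference of the 8 was 0.10, 0.26, 0.032 and 0.34 in these comparisons in turn, beside 0.093, 0.20, 0.22 and 0.16 over all genes.

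**Figure D2:**
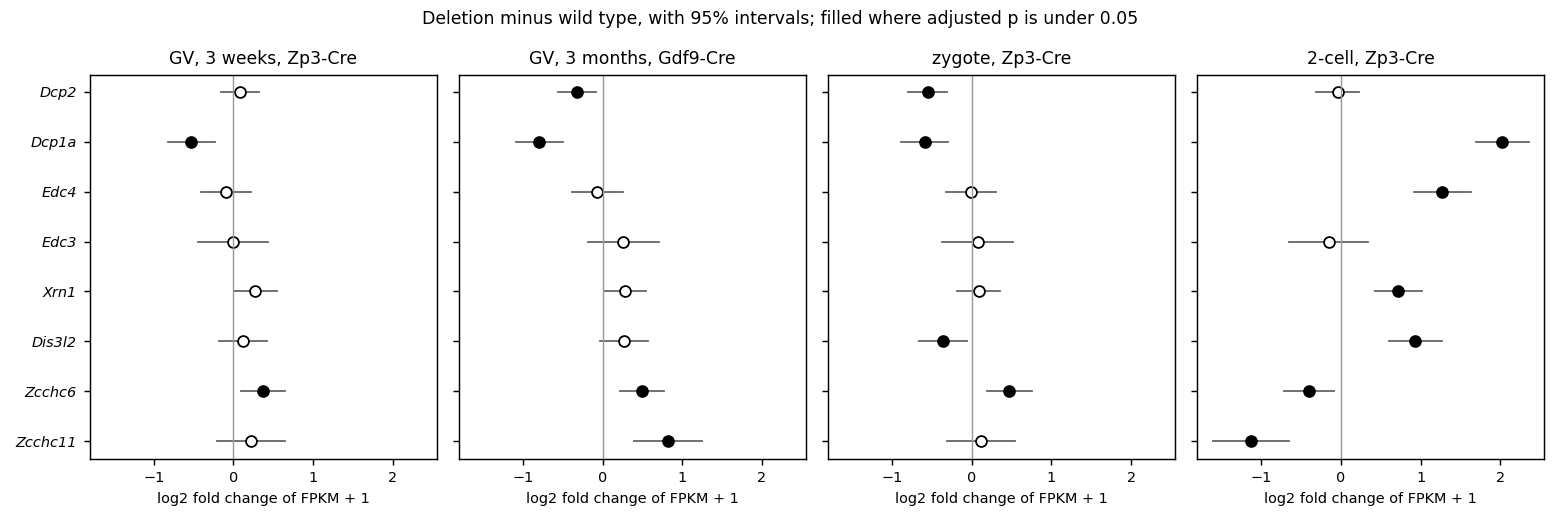
Log2 fold change of FPKM + 1 (horizontal axis), deletion minus wild type, for the 8 genes in 4 comparisons. Lines are 95% intervals and filled points were called. Dcp1a was at -0.53, -0.80 and -0.59 in GV oocytes and zygotes and at 2.02 in 2-cell embryos, while Zcchc6 was at 0.37, 0.49, 0.47 and -0.40; its zygote value was -0.039 after quantile normalization.

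The direction of small differences depended on how libraries were scaled. FPKM left the median gene higher in the deletion groups, and 61.8%, 69.2%, 75.6% and 55.8% of the calls over all genes were higher in the 4 comparisons in turn. After median-of-ratios scaling these splits were 46.1%, 48.6%, 40.6% and 46.1%, and after quantile normalization 48.2%, 46.6%, 44.6% and 56.1%. Among the 12 comparisons, the median of all genes moved by up to 0.554 on the log2 scale under quantile normalization.

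Dcp1a, the cofactor of the decapping enzyme, was lower without Cxxc1 in oocytes and zygotes and higher in 2-cell embryos. At 3 weeks the wild-type GV libraries held 145, 135 and 147 FPKM and the Zp3-Cre libraries 97.4, 102 and 95.04. At 3 months the values were 177, 167 and 176 in wild-type oocytes and 89.8, 106 and 103 in Gdf9-Cre oocytes. No deletion library overlapped a wild-type library at either age. The difference was -0.53 ± 0.141 (log2, SE; limma adjusted p = 0.00787) at 3 weeks and -0.80 ± 0.141 (limma adjusted p = 0.000127) at 3 months. The difference between those effects was -0.27, with a 95% interval of -0.68 to 0.15, and it was not called.

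In zygotes the order was the same at a higher level. Wild-type zygotes held 588, 651 and 592 FPKM of Dcp1a and zygotes of Zp3-Cre mothers 423, 372 and 422, a difference of -0.59 ± 0.141 (limma adjusted p = 0.00173). By the 2-cell stage the order had turned. Wild-type 2-cell embryos held 35.8 and 38.9 FPKM, and those of Zp3-Cre mothers 199, 171 and 109. Every deletion embryo library was above both wild-type ones, and the difference was 2.02 ± 0.157 (limma adjusted p = 9.69e-10). The lowest of the 3 was the library that stood apart, and without it the difference was 2.28. The mean level thus ran from zygote wild type through zygote Zp3-Cre, GV wild type 3 months, 2-cell Zp3-Cre, GV wild type 3 weeks, GV Gdf9-Cre, GV Zp3-Cre and 2-cell wild type, in falling order. The 2-cell Zp3-Cre libraries overlapped both wild-type GV groups, and the Zp3-Cre and Gdf9-Cre oocytes overlapped each other.

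Dcp2 is the enzyme that cuts the cap, and its pattern differed from that of Dcp1a. In wild-type GV oocytes it was at 8.43, 9.04 and 8.96 FPKM at 3 weeks and at 12.6, 12.1 and 12.6 at 3 months. That was the single one of the 8 genes called between ages, where 3.95% of all genes were called (2.25% higher and 1.7% lower), with a difference of 0.45 ± 0.114 (limma adjusted p = 0.0294); leaving out any 1 of these 6 libraries ended the call, with an adjusted p of 0.0735 to 0.127. Zp3-Cre oocytes at 3 weeks held 9.20, 8.24 and 11.0 FPKM, which spanned the wild-type values, and the difference of 0.088 was not called. Gdf9-Cre oocytes at 3 months held 8.96, 10.1 and 10.3, all below the wild-type libraries of that age, at -0.32 ± 0.114 (limma adjusted p = 0.0262). This call was lost without wild-type library 1 (adjusted p = 0.0660), wild-type library 3 (0.0644) or Gdf9-Cre library 1 (0.107).

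In zygotes Dcp2 was at 20.3, 19.8 and 26.8 FPKM in the wild type and at 14.6, 14.6 and 14.97 in the deletion group. The groups did not overlap, and the difference of -0.55 ± 0.114 (limma adjusted p = 0.000444) was called under every alternative run. The effect in zygotes was lower than that in 3-week oocytes by a difference of -0.64 (limma adjusted p = 0.00481), and Dcp2 was the 1 gene of the 8 called in that test, where 29.4% of all genes were (22.4% higher and 7.01% lower). Of those calls 76.1% were higher, against 38.7% and 49.1% under the 2 other scalings. In 2-cell embryos the values were 22.2 and 22.8 in the wild type and 19.1, 22.3 and 24.5 in the deletion group, and they overlapped. The difference there was -0.039 with a 95% interval of -0.31 to 0.23, and -0.31 (adjusted p = 0.0351) after median-of-ratios scaling. In level, both 2-cell groups and wild-type zygotes overlapped at the top, deletion zygotes and wild-type 3-month oocytes each stood clear below them, and the other 3 oocyte groups overlapped at the bottom.

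Edc4, the scaffold that joins the decapping proteins, was among the abundant mRNAs of oocytes and zygotes in all groups. GV libraries held 127, 121 and 126 FPKM (wild type, 3 weeks), 124, 123 and 104 (Zp3-Cre), 116, 113 and 117 (wild type, 3 months) and 106, 113 and 112 (Gdf9-Cre). Zygotes held 136, 139.7 and 130.3 FPKM with, and 134, 132 and 137 without, maternal Cxxc1. The deletion differences of -0.091, -0.067 and -0.0093 in these 3 comparisons were not called, and their 95% intervals ran from -0.41 to 0.31 at the widest; median-of-ratios scaling called the zygote value lower, at -0.62 (adjusted p = 0.00657). In 2-cell embryos the groups separated. Both wild-type libraries held 17.2 FPKM, and the deletion libraries held 57.0, 49.1 and 28.4. The difference was 1.27 ± 0.170 (limma adjusted p = 1.71e-06), and 1.57 without the third deletion library, which was again the lowest. In level, the 2-cell groups were the lowest, in the order of deletion above wild type, and both zygote groups overlapped at the top.

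Edc3 promotes decapping by binding DCP2 and was scarce throughout. Its values were 0.410, 0.795 and 0.648 FPKM in wild-type GV oocytes at 3 weeks and 0.718, 0.346 and 0.331 at 3 months. Zp3-Cre oocytes held 0.547, 0.336 and 1.01, and Gdf9-Cre oocytes 0.720, 0.744 and 0.760. Wild-type zygotes held 0.165 and 0.0532, with the first library listed at 0, and deletion zygotes 0.205, 0.103 and 0.0747. Wild-type 2-cell embryos held 0.603 and 1.05, and deletion 2-cell embryos 0.381, 0.233 and 1.55. All 23 values were whole multiples, within 0.05, of the smallest step of that gene in the library, from 0 to 29 steps, so each rested on few fragments. Both zygote groups lay below every other group, and the other 6 overlapped from one to the next. Edc3 passed the filter through 3 libraries, of Zp3-Cre oocytes and both 2-cell groups. None of the 4 deletion differences was called. Without the third 2-cell deletion library, which held the highest value, the 2-cell difference was called at -0.47 (adjusted p = 0.0259) in place of -0.15.

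Xrn1, the 5′ to 3′ exonuclease, was scarce in oocytes and highest in zygotes of both kinds. Wild-type GV oocytes held 2.45, 2.95 and 2.61 FPKM at 3 weeks and 2.65, 2.94 and 2.52 at 3 months. Zp3-Cre oocytes held 3.59, 3.18 and 3.51 and Gdf9-Cre oocytes 3.30, 3.53 and 3.66. Although no deletion oocyte library overlapped its wild-type group, the differences of 0.27 and 0.28 were not called (limma adjusted p = 0.121 and 0.0761). With array weights both were (0.0183 and 0.00579). In zygotes the values were 5.55, 5.91 and 6.47 in the wild type and 7.13, 6.73 and 5.44 in the deletion group, which overlapped. That difference was 0.087 with a 95% interval of -0.18 to 0.36, and it was called lower, at -0.46 (adjusted p = 0.00898), after median-of-ratios scaling. In 2-cell embryos Xrn1 was at 1.92 and 2.00 FPKM in the wild type and at 4.62, 4.25 and 2.94 in the deletion group. The difference was 0.72 ± 0.143 (limma adjusted p = 0.000181). It was 0.88 without the third deletion library, which was the lowest of the 3, and was not called in a fit to the 2-cell libraries alone (adjusted p = 0.0567). In falling order of group means, both zygote groups overlapped at the top, then deletion 2-cell embryos and both deletion oocyte groups overlapped, then both wild-type oocyte groups, with wild-type 2-cell embryos alone at the bottom.

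Dis3l2, the exonuclease that prefers uridylated RNA, was likewise highest in zygotes. GV libraries held 3.68, 4.49 and 2.98 FPKM (wild type, 3 weeks), 4.18, 4.66 and 3.45 (Zp3-Cre), 2.75, 3.61 and 3.79 (wild type, 3 months) and 4.02, 4.31 and 4.41 (Gdf9-Cre), and the deletion differences of 0.12 and 0.27 were not called. With array weights the difference at 3 months was called (limma adjusted p = 0.0483). Wild-type zygotes held 11.7, 8.81 and 8.67, above the 7.25, 7.10 and 7.45 of deletion zygotes. That fall of -0.36 ± 0.143 was close to the threshold (limma adjusted p = 0.0437). It was -0.24 (adjusted p = 0.231) without the first wild-type library, which held the highest value, and was also lost without any 1 of the 3 deletion libraries (0.0702 to 0.0981). In all, the call was lost under 9 of 13 alternatives. Among them were a pseudocount of 0.1 (limma adjusted p = 0.0711), no filter (0.0606) and array weights (0.0747). The same difference was -0.94 after median-of-ratios scaling and -0.78 after quantile normalization. In 2-cell embryos the order was reversed, with 2.07 and 1.4999 FPKM in the wild type and 4.73, 4.05 and 4.12 in the deletion group. The difference was 0.93 ± 0.160 (limma adjusted p = 3.79e-05), and it was called under every alternative that tested Dis3l2. Wild-type zygotes, deletion zygotes and wild-type 2-cell embryos each stood clear of their neighbours in level, at the top, next to the top and at the bottom, and the 5 groups between overlapped from one to the next.

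Zcchc6, the more abundant of the uridylyl transferases, was higher without Cxxc1 in oocytes and zygotes and lower in 2-cell embryos, the opposite of Dcp1a, although quantile normalization turned its zygote value. Wild-type GV oocytes held 2.28, 3.07 and 2.50 FPKM at 3 weeks, and Zp3-Cre oocytes 3.17, 4.28 and 3.60. At 3 months the values were 3.58, 3.14 and 2.75 against 4.45, 4.90 and 5.16 in Gdf9-Cre oocytes. Zygotes held 2.11, 1.78 and 2.22 with and 2.97, 3.32 and 3.33 without maternal Cxxc1. In each of the 3 pairs every deletion library was above every wild-type library. The differences were 0.37 ± 0.133, 0.49 ± 0.133 and 0.47 ± 0.133 (limma adjusted p = 0.0403, 0.00476 and 0.00605).

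These rises of Zcchc6 depended on scaling. Their sizes were 0.28, 0.28 and 0.033 after median-of-ratios scaling and 0.24, 0.20 and -0.039 after quantile normalization, and none of the 6 values was called. At 3 weeks the call was also lost without wild-type library 1 (0.31, adjusted p = 0.156) or 3 (0.35, 0.110) and without Zp3-Cre library 2 (0.28, 0.169) or 3 (0.38, 0.0767). In 2-cell embryos Zcchc6 was at 7.04 and 6.60 FPKM in the wild type and at 5.34, 3.93 and 5.63 in the deletion group. The groups did not overlap, and the difference was -0.40 ± 0.148 (limma adjusted p = 0.0229). That call was lost without wild-type library 1 (-0.36, adjusted p = 0.113) or 2 (-0.44, 0.0529), without deletion library 2 (-0.27, 0.114) and after quantile normalization (-0.29, 0.0700), with array weights (0.129) and in a fit to those groups alone (0.182). Wild-type 2-cell embryos had the highest mean level of Zcchc6 and wild-type zygotes the lowest. Between them, the libraries of Zp3-Cre oocytes, deletion zygotes and wild-type oocytes of both ages overlapped from one group to the next.

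Zcchc11, the second transferase, was nearly absent from wild-type oocytes and zygotes and present in wild-type 2-cell embryos. Wild-type GV oocytes held 0.0274, 0.426 and 0.124 FPKM at 3 weeks and 0.0818, 0.290 and 0.0983 at 3 months. Zp3-Cre oocytes held 0.252, 0.405 and 0.485, which overlapped the wild type, and the difference of 0.22 was not called. Gdf9-Cre oocytes held 1.43, 1.13 and 0.646, all above the wild type of that age. The difference of 0.82 ± 0.203 was called (limma adjusted p = 0.00237), though not after quantile normalization (0.36, adjusted p = 0.0765). Zcchc11 passed the filter only through libraries of Gdf9-Cre oocytes and both 2-cell groups, where its means were highest. Its tests in those groups are not independent of that choice. The summed granulosa and cumulus markers of the same 3 libraries were 173, 102 and 91.6 FPKM, against 37.4 to 40.5 in wild-type oocytes of that age. Of 11 such markers tested 8 were called higher, and Inha, the inhibin alpha subunit, was at 63.3, 33.6 and 24.0 FPKM. In the same Gdf9-Cre libraries the summed 2-cell activation markers were 223, 197 and 166 FPKM, against 86.5 to 98.2 in the wild type. Of these 10 markers 8 were called higher. The part of either marker set in the Zcchc11 result was not tested. Between the ages the deletion effects on Zcchc11 differed by 0.60, with a 95% interval of 0.0016 to 1.20, and this was not called.

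Zygotes held 0.0948, 0.0296 and 0.0286 FPKM of Zcchc11 in the wild type and 0.0367, 0.148 and 0.240 in the deletion group. The wild-type values correspond to 1 to 3 steps of the smallest value of the gene, so no ratio of FPKM is given against them, and log2 differences that involve wild-type zygotes are on the FPKM + 1 scale and rest on these few steps. In 2-cell embryos the wild type held 2.47 and 2.58 FPKM and the deletion group 0.234, 0.375 and 1.46. The difference was -1.13 ± 0.227 (limma adjusted p = 0.000201), between groups through which Zcchc11 had passed the filter. The third deletion library, with its higher stroma and blood markers, held the highest of the 3 deletion values, and without it the difference was -1.44. In the order of group means, wild-type 2-cell embryos stood alone at the top, and the other 7 groups, from Gdf9-Cre oocytes down to wild-type zygotes, overlapped from one to the next.

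The groups of one genotype followed the same genes through development. From the wild-type 3-week oocyte to the wild-type zygote, 5 of the 8 genes were called, against 70.1% of all genes (19.4% higher and 50.7% lower). Dcp1a was higher in zygotes by 2.09, Dcp2 by 1.24, Dis3l2 by 1.19 and Xrn1 by 0.93 on the log2 scale, while Edc3 was lower by -0.59. Over all genes the median change was -0.47 and 27.7% of the calls were higher, against 48.4% and 54.0% under the 2 other scalings. The 4 rises were called under every alternative that tested the gene. Edc3 lost its call under 5 alternatives, among them median-of-ratios scaling (-0.45), quantile normalization (-0.30) and the omission of oocyte library 2 (adjusted p = 0.0689) or of zygote library 1 (0.0568). Zcchc6, at -0.25, was not called; the other scalings called it higher, at 0.42 and 0.76, and a comparison with 3-month oocytes called it lower, at -0.45. Edc4, at 0.12, was not called, and was called higher, at 1.05, after median-of-ratios scaling.

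From wild-type zygote to wild-type 2-cell embryo, 7 of the 8 were called, against 68.5% of all genes (44.5% higher and 24% lower). Dcp1a was lower by -3.99 ± 0.157, Edc4 by -2.91 ± 0.170, Dis3l2 by -1.94 ± 0.160 and Xrn1 by -1.24 ± 0.143. Zcchc11 was higher by 1.75 ± 0.227, Zcchc6 by 1.37 ± 0.148 and Edc3 by 0.76 ± 0.236. Zcchc11 and Edc3 had passed the filter partly through 2-cell libraries, so their tests here are not independent of that choice. The limma adjusted p ran from 2.94e-14 for Dcp1a to 0.00748 for Edc3. Dcp2, at 0.024, was not called, and was called lower under both other scalings, at -0.41 and -0.34. Over all genes 65.0% of these calls were higher, against 54.0% and 43.4% under the other scalings. Edc3 was not called without wild-type 2-cell library 2 (0.58, adjusted p = 0.0964) or after quantile normalization (0.32, 0.153).

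**Figure D3:**
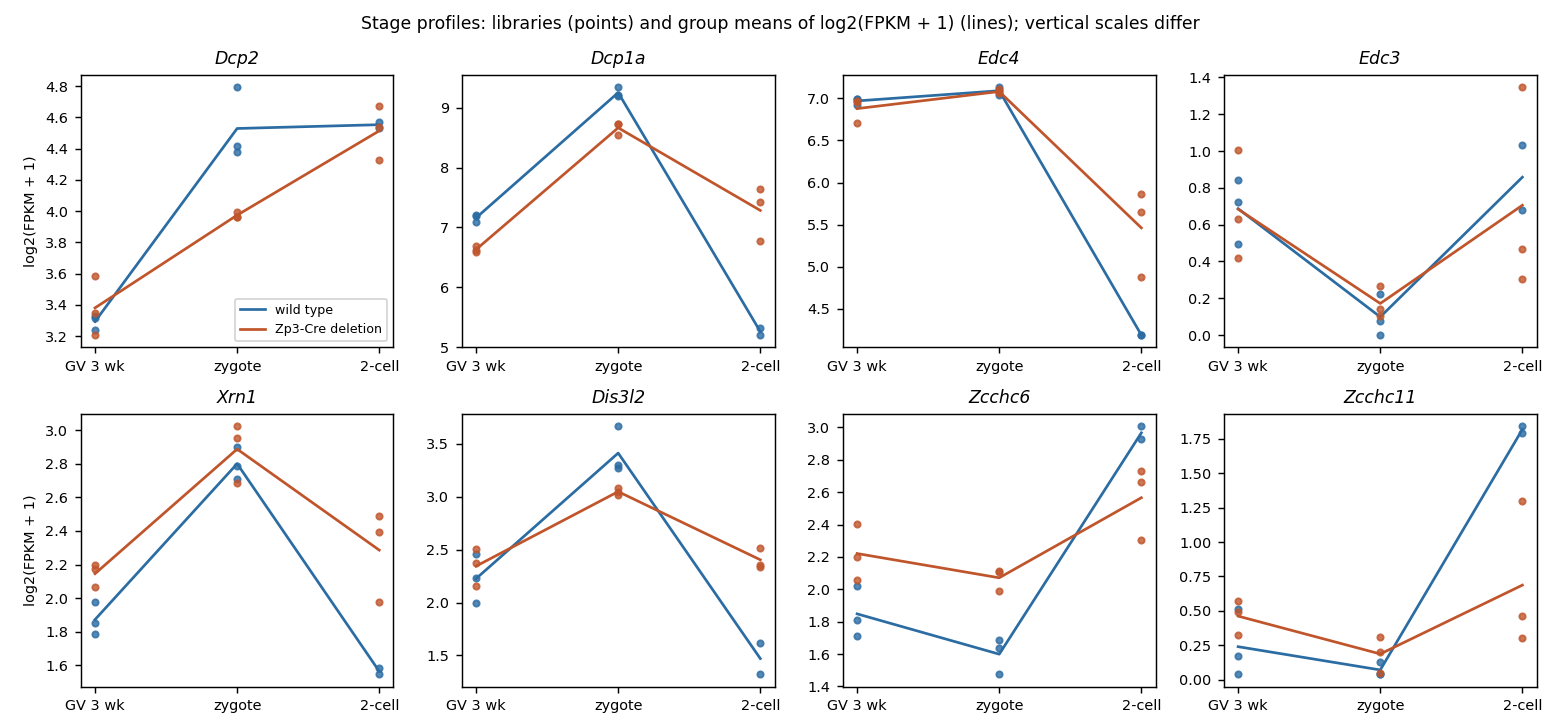
Level as log2(FPKM + 1) (vertical axis, scales differ) at 3 stages (horizontal axis) for wild-type (blue) and Zp3-Cre deletion (orange) libraries (points) and group means (lines). Between zygote and 2-cell embryo Dcp1a changed by -3.99 in the wild type and -1.38 in the deletion groups, and Zcchc11 by 1.75 and 0.50. Zcchc11 passed the filter partly through 2-cell libraries.

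Without maternal Cxxc1 the zygote to 2-cell change was smaller for the genes that moved most in the wild type. From deletion oocyte to deletion zygote 5 of the 8 were called, against 64.9% of all genes (21.9% higher and 43% lower): Dcp1a at 2.03, Xrn1 at 0.74, Dis3l2 at 0.70 and Dcp2 at 0.59 were higher, and Edc3 at -0.51 was lower (limma adjusted p = 0.0399), the last call being lost under 8 of 13 alternatives, among them median-of-ratios scaling (-0.39) and quantile normalization (-0.22). From deletion zygote to deletion 2-cell embryo all 8 were called, against 50% of all genes (32.7% higher and 17.3% lower). Edc4 at -1.62, Dcp1a at -1.38, Dis3l2 at -0.64 and Xrn1 at -0.60 were lower. Dcp2 at 0.54, Edc3 at 0.53, Zcchc11 at 0.50 and Zcchc6 at 0.49 were higher. Zcchc11 and Edc3 had passed the filter partly through 2-cell libraries. The calls of Zcchc11 and Edc3 were lost without the third 2-cell deletion library, at 0.19 (adjusted p = 0.353) and 0.21 (0.323), and under 9 and 8 of the 13 alternatives in all. That of Zcchc6 was lost after quantile normalization (0.20, adjusted p = 0.191) and in a fit to the 2 groups alone (0.0795). Over all genes 33.7% of the calls from oocyte to zygote and 65.5% of those from zygote to 2-cell embryo were higher, against 48.4% and 58.9% after median-of-ratios scaling and 56.3% and 48.8% after quantile normalization.

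Whether the deletion effect differed between zygotes and 2-cell embryos, which is the same number as the difference between the stage changes of the genotypes, was tested directly. It was called for 7 of the 8 genes, against 53.9% of all genes (21.5% higher and 32.4% lower). The effect was higher in 2-cell embryos for Dcp1a by 2.61 (limma adjusted p = 3.73e-09), Dis3l2 by 1.30 (3.73e-05), Edc4 by 1.28 (7.86e-05), Xrn1 by 0.63 (0.00868) and Dcp2 by 0.52 (0.0156). It was lower for Zcchc11 by -1.25 (0.00170) and Zcchc6 by -0.87 (0.000950), and Edc3, at -0.23, was not called. Zcchc11 had passed the filter partly through 2-cell libraries, so its test is not independent of that choice. Without the third 2-cell deletion library all 7 were called, with Dcp1a at 2.87, Zcchc11 at -1.55 and Dcp2 at 0.44. After quantile normalization Zcchc6 was at -0.25 and not called. Fitted to the 4 groups alone, Xrn1 (adjusted p = 0.0635) and Dcp2 (0.0545) were not called. With array weights limma did not call Dcp2 either (adjusted p = 0.0555). Of the calls over all genes 39.8% were higher, against 50.9% and 58.0% under the 2 other scalings.

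Other measures of embryo state moved with these values. The summed 2-cell activation markers were 419 and 324 FPKM in the wild type and 89.3, 91.8 and 93.1 in the deletion group, and 9 of 10 were called lower. The 10 oocyte markers, which are maternal transcripts, were all called higher in deletion 2-cell embryos, with sums of 2761 to 3099 FPKM against 917 and 1076. In deletion zygotes 8 of the 10 were called higher and 1 lower, with sums of 4053 to 4717 FPKM against 3232 to 3538. Their part in the differences of the 8 genes was not tested. In the test between GV models, 3 months with Gdf9-Cre minus 3 weeks with Zp3-Cre, limma called 0 of the 8 genes, against 4.89% of all genes (3.2% higher and 1.68% lower, with 65.5% of the calls higher against 36.8% and 32.5% under the other scalings). At an unadjusted limma p under 0.05 there were 2, Dcp2 at -0.41 (adjusted p = 0.159) and Zcchc11 at 0.60 (0.253), and limma with array weights called the same 2. Age and Cre line cannot be told apart in that test.

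Transcript levels of the genes were set beside those of paralogs and partners. Whether any of these can act in place of another was not tested. Dcp1a made up 98.3% to 99.9% of the sum of Dcp1a and Dcp1b in every library, and Dcp1b had group means of 0.547 to 1.27 FPKM. Xrn1 was a minor part of the sum of Xrn1 and the nuclear exonuclease Xrn2, at 8.15% to 13.6% over all libraries. The ratio of Dcp1a to Dcp2 was 14.9 to 17.1 in wild-type 3-week oocytes, 22.1 to 32.9 in wild-type zygotes, and 1.61 and 1.71 in wild-type 2-cell embryos. In deletion libraries it was 8.63 to 12.4, 25.5 to 29.0 and 4.43 to 10.4 at these stages. Over Edc4, the ratio of Dcp1a was 1.12 to 1.17 in wild-type 3-week oocytes and 0.782 to 0.915 in Zp3-Cre oocytes.

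Among these shares that of Dis3l2 moved with stage. It formed 4.20% to 7.55% of the sum of Dis3, Dis3l and Dis3l2, which encode the 3 enzymes of this family, in GV oocytes of all 4 groups. In wild-type zygotes the share was 61.3% to 77.4%, since Dis3l was at 2.47 to 5.27 FPKM there and at 52.3 to 55.1 in wild-type 3-week oocytes. In deletion zygotes, where Dis3l was at 9.26 to 13.0 FPKM, the share of Dis3l2 was 33.8% to 42.9%, with no overlap. In 2-cell embryos it was 3.79% and 4.30% in the wild type and 12.1% to 15.3% in the deletion group, beside Dis3, the exosome nuclease, at 15.01 and 18.4 FPKM in the former and 1.71 to 2.04 in the latter. Zcchc6 formed 75.7% to 98.8% of the sum of Zcchc6 and Zcchc11 in all oocyte and zygote libraries. In wild-type 2-cell embryos that share was 71.9% and 74.0%, below the 79.4% to 95.8% of deletion 2-cell embryos. The lowest of these was the third deletion library.

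**Figure D4:**
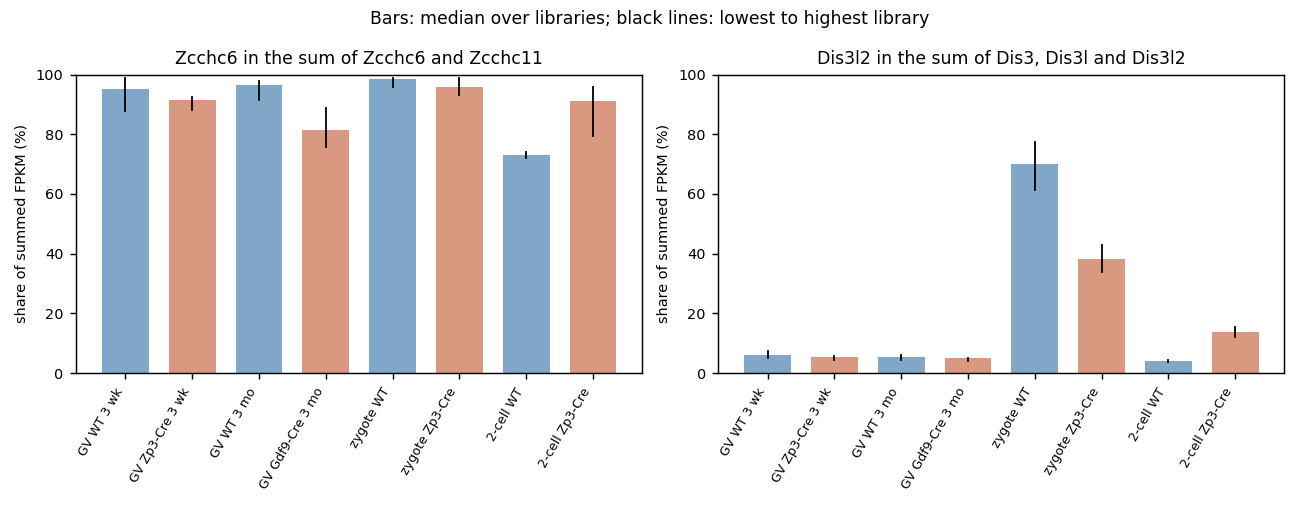
Share of summed FPKM (percent, vertical axis from 0) of Zcchc6 in Zcchc6 + Zcchc11 and of Dis3l2 in Dis3 + Dis3l + Dis3l2, by group, as the median over libraries (bars) with the lowest and highest library (lines). The Dis3l2 share was 61.3% to 77.4% in wild-type zygotes and 33.8% to 42.9% in deletion zygotes.

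The wider decay machinery was followed with 62 further genes in 4 lists, of which 61 were tested. In 3-week oocytes 11 were called higher and 6 lower, in 3-month oocytes 21 and 9, in zygotes 30 and 9, and in 2-cell embryos 29 and 14. Over all genes, 29.6%, 49.5%, 46.7% and 66.5% were called in these comparisons. Their median differences were 0.15, 0.23, 0.43 and 0.27, beside the medians of all genes given above. The split by direction depended on scaling: in zygotes it was 12 higher and 20 lower after median-of-ratios scaling and 15 and 18 after quantile normalization, in 3-month oocytes 10 and 17 or 12 and 13, and in 3-week oocytes 6 and 7 or 8 and 7. In 2-cell embryos more were called higher than lower under both (24 and 20, 27 and 15), and also without the third deletion library (29 and 15).

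Among 19 decapping partners, 4 were called higher and 1 lower in 3-week oocytes, 9 and 1 in 3-month oocytes, 12 and 1 in zygotes and 13 and 2 in 2-cell embryos. Over all genes, 18.3%, 34.2%, 35.3% and 37.1% were called higher and 11.3%, 15.2%, 11.4% and 29.4% lower in these comparisons in turn, which is the background for each list. The list holds the subunits of the LSM ring, which binds deadenylated ends and promotes decapping. Lsm4 had a mean of 73.7 FPKM in deletion zygotes against 2.24 in the wild type (4.59, limma adjusted p = 2.34e-13), and Lsm5 had 119.7 against 13.4 (3.09, 2.04e-11). In 2-cell embryos Lsm5 was at 202 against 10.6 FPKM (4.13, limma adjusted p = 1.04e-12), and Dcps, the scavenger enzyme that hydrolyses the freed cap, at 16.1 against 2.88 (2.12, 7.67e-08). In oocytes Lsm1 was higher at both ages, by 1.17 and 1.46, and Patl2, an oocyte translational repressor, was lower at 3 weeks by -0.81 (limma adjusted p = 0.000954).

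Of 22 exonuclease, exosome and SKI complex genes, 3 were called higher and 2 lower in 3-week oocytes, 8 and 3 in 3-month oocytes, 10 and 2 in zygotes and 9 and 8 in 2-cell embryos, beside 29.6%, 49.5%, 46.7% and 66.5% of all genes called in either direction. Exosc6, an exosome core subunit, was higher in 3-month oocytes at 38.2 against 11.5 FPKM (1.65, limma adjusted p = 2.19e-08). In 2-cell embryos it was lower, at 6.14 against 45.8 FPKM (-2.71, 1.10e-11), as were Dis3 (-2.62, 6.85e-12) and Exosc5 (-2.01, 9.97e-08). There Dis3l2 differed in the other direction from Dis3. Of 10 nonsense-mediated decay genes, 1, 2, 3 and 0 were called higher and 1, 2, 4 and 3 lower in the 4 comparisons in turn. Smg5, a factor that links this pathway to decay, was at 5.45 FPKM in deletion and 37.1 in wild-type 2-cell embryos (-2.57, limma adjusted p = 1.70e-11).

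Among the 10 tested nucleotidyl transferases and Lin28 genes, 3 were called higher and 2 lower in 3-week oocytes, 2 and 3 in 3-month oocytes, 5 and 2 in zygotes and 7 and 1 in 2-cell embryos, against the same shares of all genes. Lin28a, an RNA-binding protein that recruits ZCCHC11 and ZCCHC6 to let-7 precursors, was at 66.8 FPKM in deletion against 152 in wild-type zygotes (-1.18, limma adjusted p = 9.29e-10). Lin28b was higher in GV oocytes without Cxxc1, by 0.50 (limma adjusted p = 0.0335) and 0.89 (0.000254) at the 2 ages. In 2-cell embryos Fam46c, a poly(A) polymerase, was at 130.5 against 23.3 FPKM (2.43, 1.28e-10), and Papd4, the cytoplasmic poly(A) polymerase also called Gld2, at 42.5 against 20.2 (1.04, 6.81e-08).

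**Figure D5:**
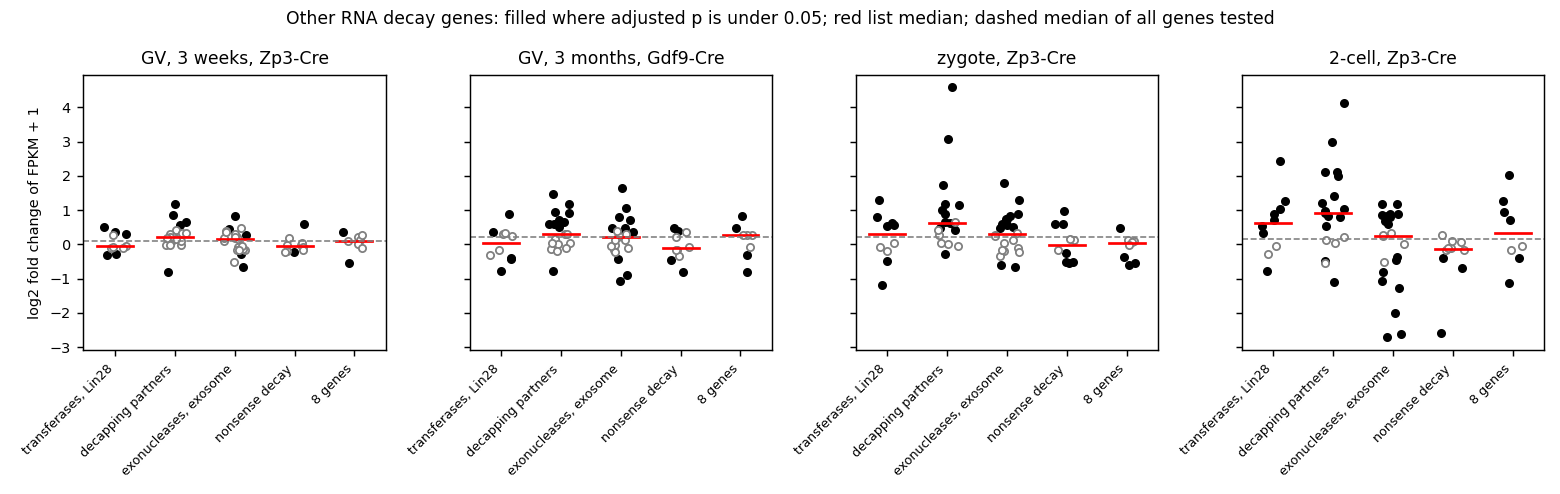
Log2 fold change of FPKM + 1, deletion minus wild type (vertical axis), for each tested gene of 4 decay lists and for the 8 genes, in 4 comparisons. Filled points were called, red lines are list medians and dashed lines the median of all genes tested. Lsm4 and Lsm5 are the highest points in zygotes, at 4.59 and 3.09; with median-of-ratios scaling or quantile normalization fewer of the 61 other genes were called higher than lower in zygotes.

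Likeness of pattern was described by Pearson's r between the 8 group means of log2(FPKM + 1), over 7585 tested genes with a mean of at least 5 FPKM. All of these points share libraries, and many genes follow the same stages. Dis3l2 was most like Xrn1 and Dcp1a among the 8, at r = 0.956 and 0.940, and Zcchc6 was most like Zcchc11, at 0.921. Dcp1a ran against Edc3 at -0.936 and against Zcchc11 at -0.837, and Dcp2 stood apart from Dcp1a at 0.149. Among the 7585 genes, those most like Dcp1a were Thoc2, Pcid2 and Clk2, at r = 0.992 each. Those most like Edc4 were Slc12a9, Mfsd9 and Pex26 (0.997, 0.995 and 0.994), those most like Dcp2 were Csnk1g3, Ppp4r2 and Fastkd3 (0.991, 0.986 and 0.986), and those most like Edc3 were 1110008F13Rik, 4930453N24Rik and Nacc1 (0.986, 0.979 and 0.975). For Xrn1 they were Ubac2, Fam8a1 and Usp28 (0.987, 0.986 and 0.984), and for Dis3l2 Ddi2, Sap30 and Pdlim1 (0.988, 0.985 and 0.980). For Zcchc6 they included Pbdc1 and Ankrd37 (0.982 and 0.979), and for Zcchc11 they were Marcksl1, Rpl10l and Ctsl (0.992, 0.989 and 0.989).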

How the data were processed

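The deposited table holds FPKM values per gene, made by the authors, for 23 libraries; per the labels' protocols an RNeasy micro kit purified the RNA and NEBNext Ultra reagents served for the libraries. The submitters' processing notes name CASAVA 1.4, TopHat2 2.0.12, Cufflinks 2.2.1 and SAMtools, and 2 builds, mm10 and mm9, with no role. Annotation, strandedness and poly(A) selection: not given in the sources used here, so reads from antisense or overlapping genes cannot be told apart. Bisulfite data were not analysed here.

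The test covered 13776 of 24506 genes, those reaching 1 FPKM in 2 or more libraries. A model with 8 group means (15 residual degrees of freedom) was fitted to log2(FPKM + 1) with limma 3.58.1 (R 4.3.3) and a mean-variance trend, over 12 comparisons, each with Benjamini-Hochberg adjustment over all genes at 0.05; the fold changes are on that scale and understate changes of low genes. Figures and summaries used Python 3.11.15. On simulated data with known changes in the 3-week comparison (13776 genes), 82% of changes of 1 and 97% of changes of 2 on the log2 scale were recovered. FPKM gives no counts; relative depth came from the spacing of values up to 0.15 FPKM, and no counting interval is given. No 2 libraries were identical (0 pairs). The main fit did not pair samples by replicate number. The deviations of same-numbered samples from their group means correlated at -0.0689 to 0.0789. With 2 or 3 libraries per group these values cannot exclude a shared animal or batch.

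The genes, lists and tests were chosen with earlier results of these data known. Named were the 8 genes and Cxxc1, up to 3 called genes with the largest change per list and deletion comparison, fixed paralog pairs, and the 3 genes most alike, of which 1 is not reported here. Alternatives were the pseudocount, filters, scalings, array weights, fits to the compared groups, a replicate block and each library left out. The counts of other decay genes under both scalings and without 1 library were added after seeing the data.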

Additional observations from a re-analysis of the deposited data

Results flagged for a closer look

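The difference between the deletion effects at 2 stages passed limma's test for 8 values. Over all genes, 53.9% were called for 2-cell embryo minus zygote and 29.4% for zygote minus 3-week oocyte. Between zygote and 2-cell embryo the effect of maternal deletion differed by 2.61 for Dcp1a, 1.30 for Dis3l2, 1.28 for Edc4, 0.63 for Xrn1 and 0.52 for Dcp2 on the log2 scale, higher in 2-cell embryos, and by -1.25 for Zcchc11 and -0.87 for Zcchc6. Between 3-week oocyte and zygote it differed by -0.64 for Dcp2, lower in zygotes. The zygote libraries enter both tests, so the values of Dcp2 in them share samples. Between zygote and 2-cell embryo, Zcchc6 was not called after quantile normalization (-0.25). In a fit to those groups alone Xrn1 and Dcp2 were not called, nor was Dcp2 with array weights. Zcchc11 had passed the filter partly through 2-cell libraries, so its value is not independent of that choice.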

How the results depend on the processing

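Of 1412 values of the 8 genes under the alternatives, 1308 kept their direction and side of the threshold or were called in neither fit, 77 lost a call, 20 gained one and 7 turned; of 682 values called in neither fit, 54 changed sign. The values that turned were Xrn1 in the zygote deletion comparison (-0.46 after median-of-ratios scaling), Zcchc6 there (-0.039 after quantile normalization), Zcchc6 from wild-type oocyte to zygote (0.42 and 0.76 under the 2 scalings) and from deletion oocyte to zygote (0.48, quantile), and Dcp2 from wild-type zygote to 2-cell embryo (-0.41 and -0.34); the cause was not tested.

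The number of genes called at 3 weeks fell from 2 to 1 without a filter, under both scalings, with only the groups compared and with the replicate block. Calls were also gained in oocytes. Array weights added Xrn1 at 3 weeks (limma adjusted p = 0.0183) and Xrn1 (0.00579) and Dis3l2 (0.0483) at 3 months. A fit to the groups compared added Xrn1 at 3 months (0.0313). Under a filter at a mean FPKM of 5, just 3 of the 8 genes are tested, and it gave 1 at 3 weeks and 2 in each of the other deletion comparisons and in the wild-type and deletion oocyte to zygote and wild-type zygote to 2-cell comparisons. It gave 3 from deletion zygote to 2-cell embryo and 3 for the difference of the deletion effects between those stages. Quantile normalization gave 2 at 3 months, 5 from deletion zygote to 2-cell embryo (4 with only those groups) and 2 for the difference of zygote and oocyte effects, for which median-of-ratios scaling gave 3. Between ages, array weights and a fit to those groups gave 2, and array weights gave 2 for the difference of the GV models. The replicate block also ended the calls of Zcchc6 at 3 weeks (adjusted p = 0.0538), Dis3l2 in zygotes (0.0520) and Zcchc11 from deletion zygote to 2-cell embryo (0.0536), and changed no other call of the 8 genes.

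Leaving out 1 library gave 1 to 2 calls at 3 weeks, 3 to 4 at 3 months, 3 to 4 in zygotes, 5 to 7 in 2-cell embryos, 0 to 0 between ages, 4 to 5 and 6 to 7 for the wild-type stage changes, 4 to 5 and 6 to 8 for the deletion ones, and 0 to 0, 1 to 2 and 7 to 7 for the 3 differences of effects. Over all genes, calls between ages were 544 against 3246 with array weights, 2482 with only those groups and 265 to 318 with 1 library left out. For the difference of the GV models they were 673 against 363 with a pseudocount of 0.1, 3228 with array weights, 2448 with only those groups, 380 with the stricter filter and 358 to 434 for the omissions that moved it. The stricter filter, which tests 7581 genes, gave 4283 for 6818 at 3 months, 5794 for 9159 in 2-cell embryos and 6093 for 9441 from wild-type zygote to 2-cell embryo, and 4052 for 6887 came from a fit to the 2 deletion groups. Depth limits Zcchc11 and Edc3, whose zygote values rest on 0 to 8 steps of the smallest value.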
